A study of Mus musculus with 35 samples.

Results

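Axin2, Lef1, Myc and Ccnd1 are 4 widely used target genes of canonical Wnt signalling, and their loci were examined in mouse embryonic fibroblasts (MEFs) on day 4 of chemical treatment. Each locus was the gene body with 5 kb on either side in mm9, the build of the deposited coordinates: Axin2 on chromosome 11 from 108781650 to 108811800, Lef1 on chromosome 3 from 130813300 to 130927300, Myc on chromosome 15 from 61816890 to 61821920, all on the plus strand, and Ccnd1 on chromosome 7 from 152115830 to 152125830 on the minus strand. Of 68221 regions in the 3 deposited RPKM tables, 15 lay at these loci. They were 9 of 36431 ATAC-seq regions, 4 of 12566 H3K4me3 regions and 2 of 19224 H3K27me3 regions. Axin2 held 2 ATAC-seq regions, Lef1 held 4, Myc held 1 and Ccnd1 held 2, while each gene held 1 H3K4me3 region. The H3K27me3 regions lay at Axin2 and Lef1, and the table listed 0 at Myc and 0 at Ccnd1.

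In canonical Wnt signalling, GSK3 marks beta-catenin for degradation until a Wnt ligand engages its receptors. Stabilised beta-catenin then enters the nucleus and activates genes bound by TCF/LEF factors. CHIR99021 inhibits GSK3 and so switches the pathway on without a ligand. H3K4me3 is a histone mark of active promoters, H3K27me3 is laid down by Polycomb at silent developmental genes, and ATAC-seq measures open chromatin through insertion of adapters by a transposase.

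The letters of a treatment name stand for its chemicals, where C means CHIR99021, 6 means Repsox (an inhibitor of the TGF-beta receptor ALK5), F is Forskolin (which raises cAMP), A is AM580 (a retinoic acid receptor agonist) and E is EPZ004777 (a DOT1L inhibitor). C6FAE, CFAE and C6AE contained CHIR99021, and 6FAE and AE did not, although all 5 contained A and E. C6FAE and 6FAE differed in CHIR99021 alone. The 3 treatments with CHIR99021 and the 2 without also differed in 6 and F, so that comparison cannot be assigned to CHIR99021 alone. Basal, whose content the sources used here do not give, and Ctr (control) were shown beside them. The MEFs came from ICR mouse embryos. ATAC-seq had 2 libraries for each of 7 treatments, with 3346418 to 8764791 tags, but its RPKM columns were merged over the libraries. H3K4me3 and H3K27me3 had 1 library for each of 6 treatments, so their differences have no replicate check and no p-value. Identity of the cells was not tested with markers, because no mm9 annotation was used here.

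Several ChIP-seq libraries stood apart. The H3K27me3 library of 6FAE held 633980 tags, had an RPKM of 0 in 16.0% of regions, and its Spearman correlation with the other 5 libraries across regions ran from -0.12 to 0.08. Only 74, 82 and 136 of the listed H3K27me3 peaks of 6FAE, C6FAE and CFAE reached a -log10 q of 1.3, against 17766 in C6AE, 6100 in Basal and 4115 in AE. The H3K4me3 library of C6AE held 745089 tags and had the highest median RPKM, 24.8 against 11.1 to 18.8 in the other libraries. The counts of members below are therefore also given without the H3K27me3 library of 6FAE and without the H3K4me3 library of C6AE. The H3K27me3 libraries of C6FAE and CFAE were kept in all counts.

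RefSeq promoters, from 250 bases before to 50 bases after the start site, were held for 2 of the 4 genes, and are shown because these genes are the pair set apart by their histone marks below. They are on the plus strand of GRCm38.p6, a later build than that of the regions, and capitals mark the TCF/LEF core letters CTTTG, searched on both strands. The Axin2 window is chr11:108920099-108920398, and the Lef1 window, the most upstream of 4 listed, is chr3:131110047-131110346.
Axin2: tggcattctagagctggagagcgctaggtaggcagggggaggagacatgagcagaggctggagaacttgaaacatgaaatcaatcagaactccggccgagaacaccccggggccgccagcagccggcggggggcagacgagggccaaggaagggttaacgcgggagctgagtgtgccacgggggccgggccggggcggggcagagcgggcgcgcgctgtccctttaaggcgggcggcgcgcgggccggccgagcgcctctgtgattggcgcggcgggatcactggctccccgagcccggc
Lef1: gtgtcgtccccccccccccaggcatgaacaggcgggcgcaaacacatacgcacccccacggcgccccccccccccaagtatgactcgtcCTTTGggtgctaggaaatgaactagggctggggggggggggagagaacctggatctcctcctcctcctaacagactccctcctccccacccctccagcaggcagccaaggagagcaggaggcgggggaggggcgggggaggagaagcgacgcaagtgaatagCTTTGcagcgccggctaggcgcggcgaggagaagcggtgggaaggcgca
The Axin2 window held 31 CpG and 0 core matches, and the Lef1 window held 18 CpG and 2 core matches. The core is short and stood in 53.9% of 32851 promoters. The longer letters CTTTGAA and CTTTGAT, which contain it, stood in 5.14% and 3.73% of promoters and in neither window.

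H3K4me3 separated the loci into pairs. At Axin2 and Lef1 it was higher in all 3 treatments with CHIR99021 than in 6FAE, AE and Basal, whereas at Myc and Ccnd1 the treatments overlapped. At Axin2, which encodes a scaffold of the beta-catenin destruction complex and a feedback inhibitor of the pathway, the H3K4me3 RPKM was 17.5 in C6FAE, 24.5 in CFAE and 46.2 in C6AE, against 6.55 in 6FAE, 9.81 in AE and 7.58 in Basal. At Lef1, which encodes a TCF/LEF factor that binds beta-catenin, it was 15.2 in C6FAE, 20.1 in CFAE and 34.6 in C6AE, against 6.20 in 6FAE, 13.5 in AE and 10.1 in Basal. The gap at Lef1 was narrow, since C6FAE lay close to AE. At Myc, a transcription factor of growth and proliferation, it was 20.9, 27.4 and 46.9 in C6FAE, CFAE and C6AE, against 19.1 in 6FAE, 40.0 in AE and 32.9 in Basal. At Ccnd1, which encodes the G1 cyclin D1, it was 12.2, 19.8 and 29.1 in C6FAE, CFAE and C6AE, against 8.72 in 6FAE, 23.0 in AE and 21.1 in Basal. AE thus exceeded C6FAE and CFAE at both Myc and Ccnd1.

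**Figure D1:**
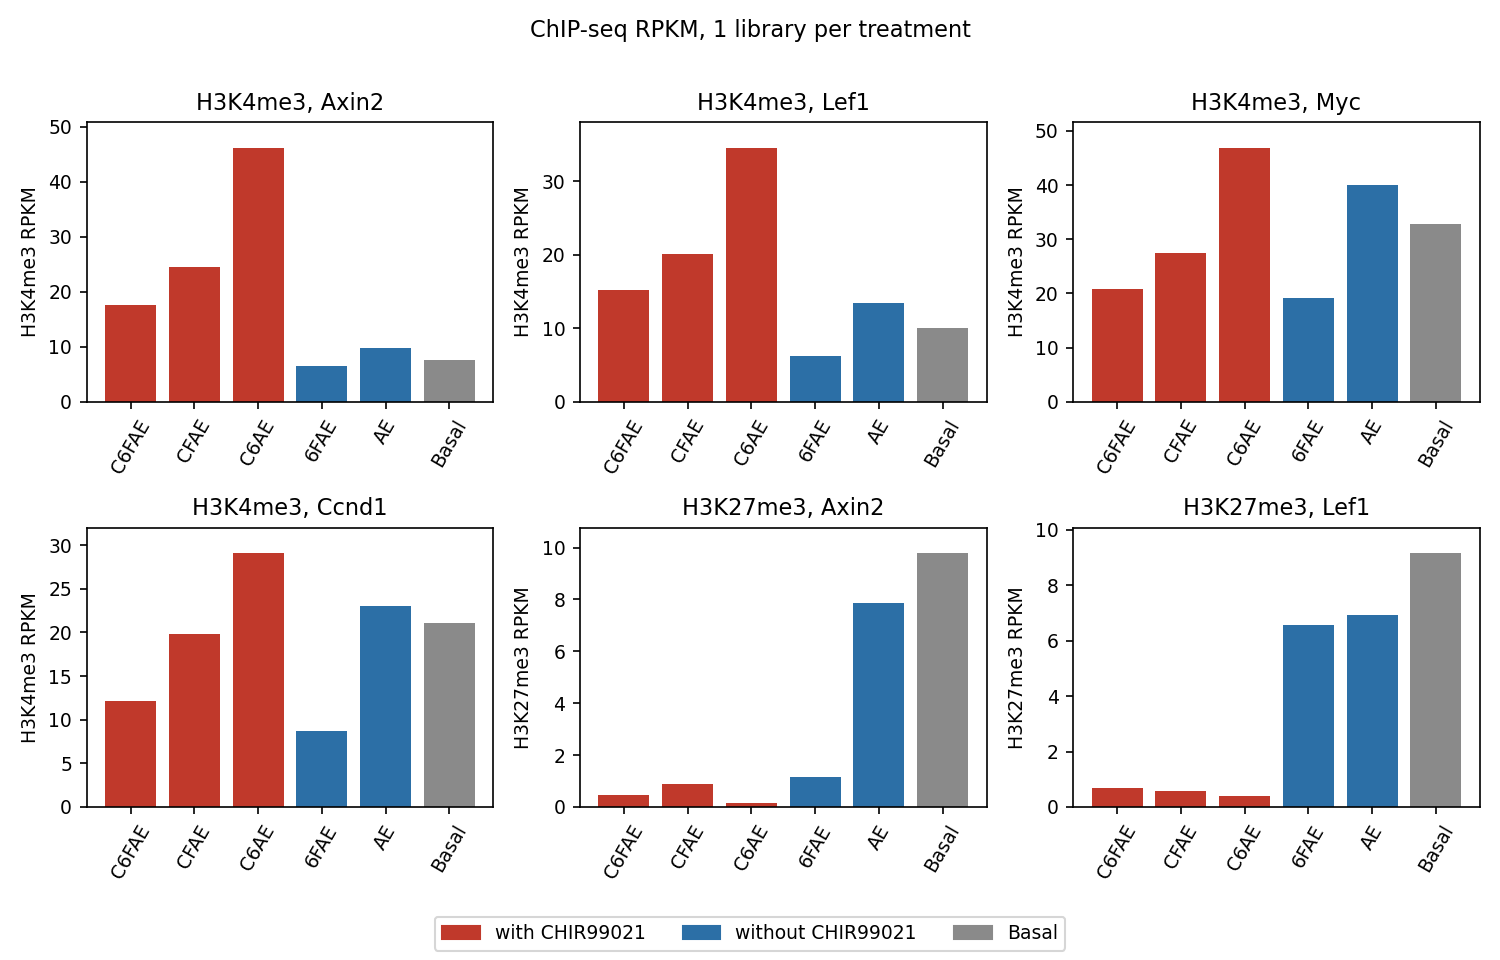
RPKM (vertical axis, from 0) of the 4 H3K4me3 and 2 H3K27me3 regions, with 1 bar per treatment and library. At Axin2 and Lef1 all 3 bars with CHIR99021 lie above the others for H3K4me3 and below them for H3K27me3, while the bars at Myc and Ccnd1 overlap.

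On the log2(RPKM + 1) scale, C6FAE exceeded 6FAE in H3K4me3 by 1.29 at Axin2, 1.17 at Lef1, 0.44 at Ccnd1 and 0.13 at Myc, around a median of 0.03 over all regions. A difference of at least 1 was reached at 2 of 4 loci and at 1.87% of all regions. With a pseudocount of 10 the differences at Axin2 and Lef1 were 0.73 and 0.63, and neither reached 1, which 0.0477% of regions then did. Of all regions, 0.724% had a difference as large as that of Axin2 and 1.13% one as large as that of Lef1. The pattern of no overlap, with every treatment containing CHIR99021 above both 6FAE and AE, held at the same 2 loci and at 2.68% of regions. After the columns were centred on their medians it still held at Axin2 and Lef1, although 10.7% of regions then showed it. Without the C6AE library it held at both genes and at 2.70% of regions.

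The listed H3K4me3 peak at the start site was also longer with CHIR99021 at Axin2 and Lef1. At Axin2 the longest listed peak of the region spanned 8771 bp in C6FAE, 6599 bp in CFAE and 5726 bp in C6AE, against 3897 bp in 6FAE, 4092 bp in AE and 4079 bp in Basal. At Lef1 it spanned 5820, 7968 and 5141 bp in C6FAE, CFAE and C6AE, against 3664, 4455 and 3136 bp in 6FAE, AE and Basal. At both genes the peaks of the 3 treatments with CHIR99021 were all longer than those of the other 3. The fold enrichment of the same peaks overlapped. At Axin2 it was 13.94, 19.58 and 16.4 in C6FAE, CFAE and C6AE, against 11.07, 19.48 and 14.65 in 6FAE, AE and Basal. At Lef1 it was 16.03, 22.64 and 13.66 against 10.42, 21.36 and 19.88 in the same order. AE and Basal thus exceeded C6FAE in fold enrichment at both genes. At Myc the lengths were 4952, 6466 and 5398 bp against 6222, 6721 and 6250 bp in the same order, and at Ccnd1 they were 3365, 7207 and 3753 bp against 3752, 5341 and 8160 bp. Longer peaks with CHIR99021 than in 6FAE and AE, without overlap, were found at 2 of 4 loci and at 1.12% of all regions. Without the C6AE library, whose Axin2 peak began 110 bp downstream of the start, they were found at the same 2 loci but at 9.87% of all regions. Over all regions the median longest peak was 2305, 3387 and 1789 bp in C6FAE, CFAE and C6AE, and 2576, 3061.5 and 3074 bp in 6FAE, AE and Basal. At Axin2 the additional length lay inside the gene, where the start site peak of C6FAE ended 8456 bp downstream of the start and that of AE ended at 3545 bp.

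**Figure D2:**
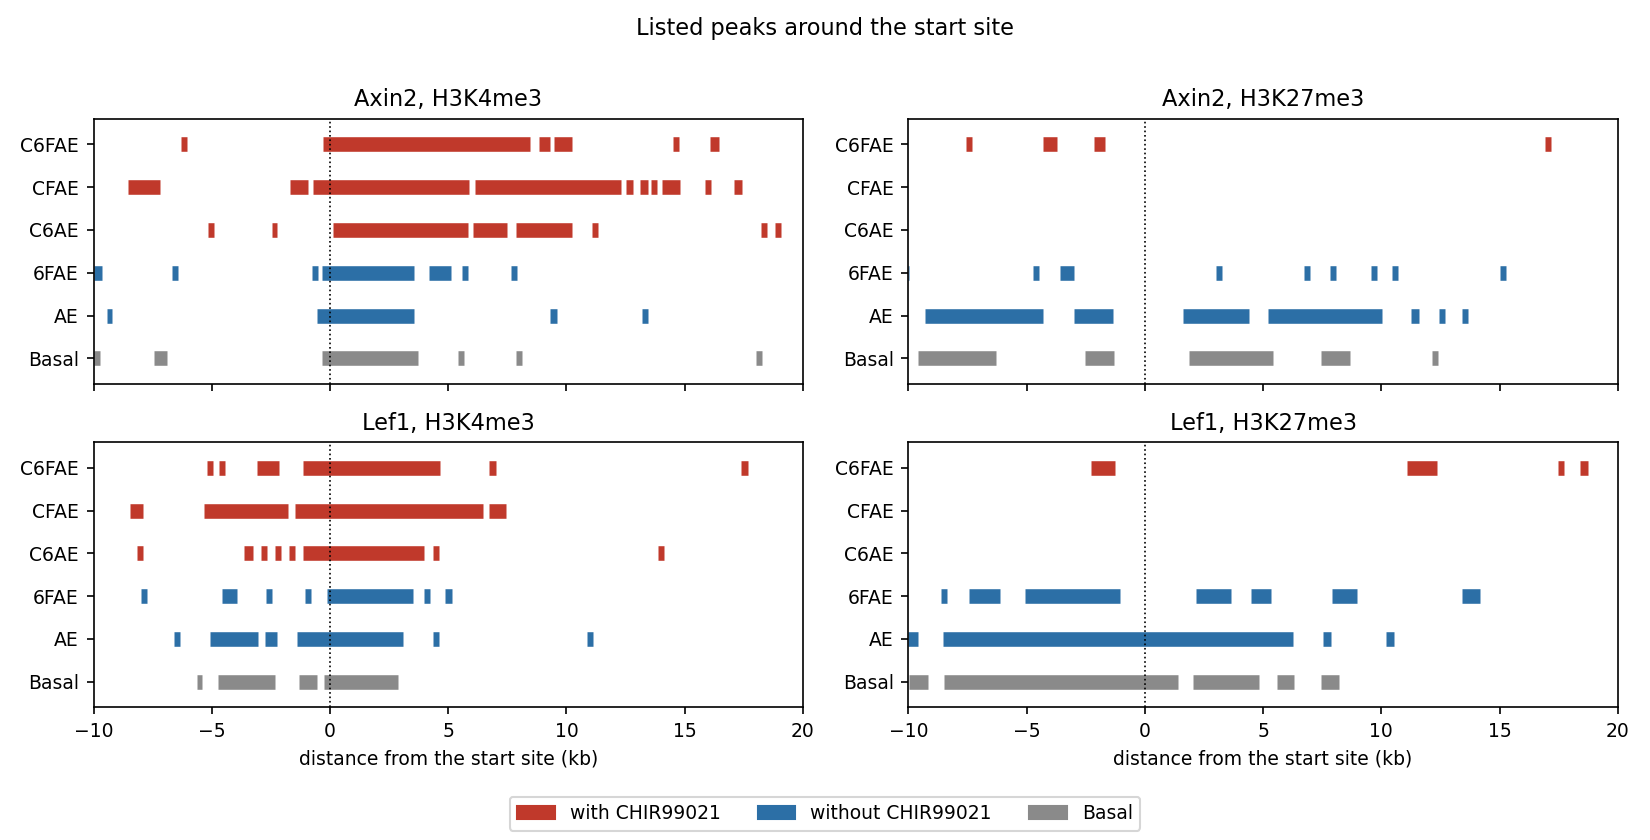
Listed H3K4me3 (left) and H3K27me3 (right) peaks around the start sites of Axin2 and Lef1, by distance from the start site in kb, with 1 row per treatment. The main H3K4me3 peak at the start site ends farther inside both genes with CHIR99021, while smaller listed peaks lie farther out with and without it, and the broad H3K27me3 peaks of AE and Basal have no counterpart in CFAE or C6AE.

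H3K27me3 had the opposite order at the same 2 loci. The Axin2 region, from 1.60 to 5.42 kb inside the gene, had an RPKM of 0.462 in C6FAE, 0.889 in CFAE and 0.143 in C6AE, against 1.17 in 6FAE, 7.87 in AE and 9.79 in Basal. The Lef1 region, from -9.61 to 6.27 kb relative to the start, had 0.698 in C6FAE, 0.562 in CFAE and 0.402 in C6AE, against 6.57 in 6FAE, 6.94 in AE and 9.16 in Basal. All 3 treatments with CHIR99021 were lowest at both genes, but at Axin2 the 6FAE library lay close to them. On the log2(RPKM + 1) scale, the difference of C6FAE from 6FAE was -0.57 at Axin2 and -2.16 at Lef1, and that from AE was -2.60 and -2.23. The difference from 6FAE at Axin2 was -0.27 after median centring and turned to 0.20 when the columns were centred on the 10% of regions of highest mean RPKM, so its direction depends on the scaling. A difference from 6FAE of at least 1 downward was reached at 1 of 2 regions, Lef1, and at 23.6% of all regions, so it is no result about these loci. Lower values with CHIR99021 than in 6FAE and AE, without overlap, were found at both regions and at 14.6% of all regions. After median centring the pattern held at Lef1 alone, with 16.6% of all regions. Without the 6FAE library, with AE as the sole comparison, it held at both, with 35.1% of all regions before centring and 35.2% after. The mean difference between the 2 sets of treatments at Lef1, -2.32, was reached or passed downward by 0.104% of regions, and that at Axin2, -1.58, by 3.17%. Against AE alone, without the 6FAE library, these differences were -2.36 at Lef1 and -2.60 at Axin2, beside a median of -0.32 over all regions, and were reached or passed by 0.0208% and 0.0104%. C6AE, the H3K27me3 library with the most peaks past the q threshold, listed 0 peaks in both windows. At Axin2 the listed peaks covered 5.96% of the window in C6FAE and 1.5% in CFAE, against 6.46% in 6FAE, 35.4% in AE and 15.6% in Basal. At Lef1 they covered 9.86% in C6FAE and 2.39% in CFAE, against 15.5% in 6FAE, 27.8% in AE and 12.2% in Basal. C6FAE thus came close to 6FAE at Axin2 and to Basal at Lef1. The low number of such peaks in C6FAE and CFAE accompanied their low values here, and its part in them was not tested.

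Both marks were then read together. The H3K4me3 regions of Axin2 and Lef1 overlapped an H3K27me3 region, and those of Myc and Ccnd1 did not. Of 2243 H3K4me3 regions with such an overlap, 4.95% had H3K4me3 higher and H3K27me3 lower with CHIR99021, Axin2 and Lef1 among them. Without the C6AE library of H3K4me3 and the 6FAE library of H3K27me3 this share was 8.38%, and both genes again had the pattern. Both shares were taken without centring. After median centring, with all libraries, H3K27me3 at Axin2 was no longer below 6FAE and AE in every treatment with CHIR99021. The rules for H3K4me3, H3K27me3, peak length and both marks together were chosen after the values had been seen, and the counts are descriptions.

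Accessibility at the start sites of Axin2 and Lef1 was highest in C6FAE and CFAE. The ATAC-seq region over the Axin2 start site, from -2.74 to 9.81 kb relative to the start, had a merged RPKM of 26.3 in C6FAE, 23.0 in CFAE and 13.1 in C6AE, against 16.1 in 6FAE, 9.51 in AE, 9.39 in Basal and 9.08 in Ctr. The region over the Lef1 start site, from -6.14 to 2.34 kb relative to the start, had 24.9 in C6FAE, 24.1 in CFAE and 16.1 in C6AE, against 14.4 in 6FAE, 9.71 in AE, 6.84 in Basal and 8.02 in Ctr. C6AE lay below 6FAE at Axin2 and above it at Lef1. The second Axin2 region, at the 3′ end of the gene, had 22.3, 16.3 and 10.9 in C6FAE, CFAE and C6AE, against 10.7, 6.99, 9.20 and 8.50 in 6FAE, AE, Basal and Ctr. Within Lef1, the region 35.5 kb downstream of the start had 11, 12.3 and 9.42 against 6.16, 1.27, 7.62 and 1.99 in the same order. Those 2 regions and the Lef1 start site were above both 6FAE and AE in every treatment with CHIR99021, that is at 3 of 9 member regions and at 8.24% of all regions. The other Lef1 regions, at 28.7 and 107.2 kb, had no such order. At 28.7 kb the RPKM was 11.5, 23.9 and 11.8 in C6FAE, CFAE and C6AE, against 12.9 in 6FAE and 18.8 in AE. The region at 107.2 kb was highest in Ctr, at 15.7, and Basal, at 14.6, against 6.25 to 7.54 in the other treatments.

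The start sites of Myc and Ccnd1 had a listed ATAC-seq peak within 1 kb in every library. So did that of Axin2, and that of Lef1 in every library but replicate 1 of Basal. Myc had a merged ATAC-seq RPKM of 25.3 in C6FAE, 31.9 in CFAE and 21.1 in C6AE, against 24.2 in 6FAE, 34.0 in AE, 19.8 in Basal and 19.0 in Ctr. Ccnd1 had 22.1, 23.6 and 13.9 in C6FAE, CFAE and C6AE, against 17.8, 26.8, 17.4 and 13.8 in 6FAE, AE, Basal and Ctr. AE was highest at both, and the treatments with CHIR99021 overlapped 6FAE and AE. A small region 12.0 kb from the Ccnd1 start, beyond its 3′ end, ranged from 5.79 in C6AE to 22.7 in 6FAE. Across the 7 treatments the log2 RPKM of the Axin2 start site was most like that of Lef1 (Pearson's r = 0.95, Spearman's rho = 0.93), and that of Myc most like that of Ccnd1 (r = 0.92, rho = 0.96). The 4 pairings across these couples had r of 0.34 to 0.44 and rho of 0.39 to 0.61. The points share libraries and their depth.

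**Figure D3:**
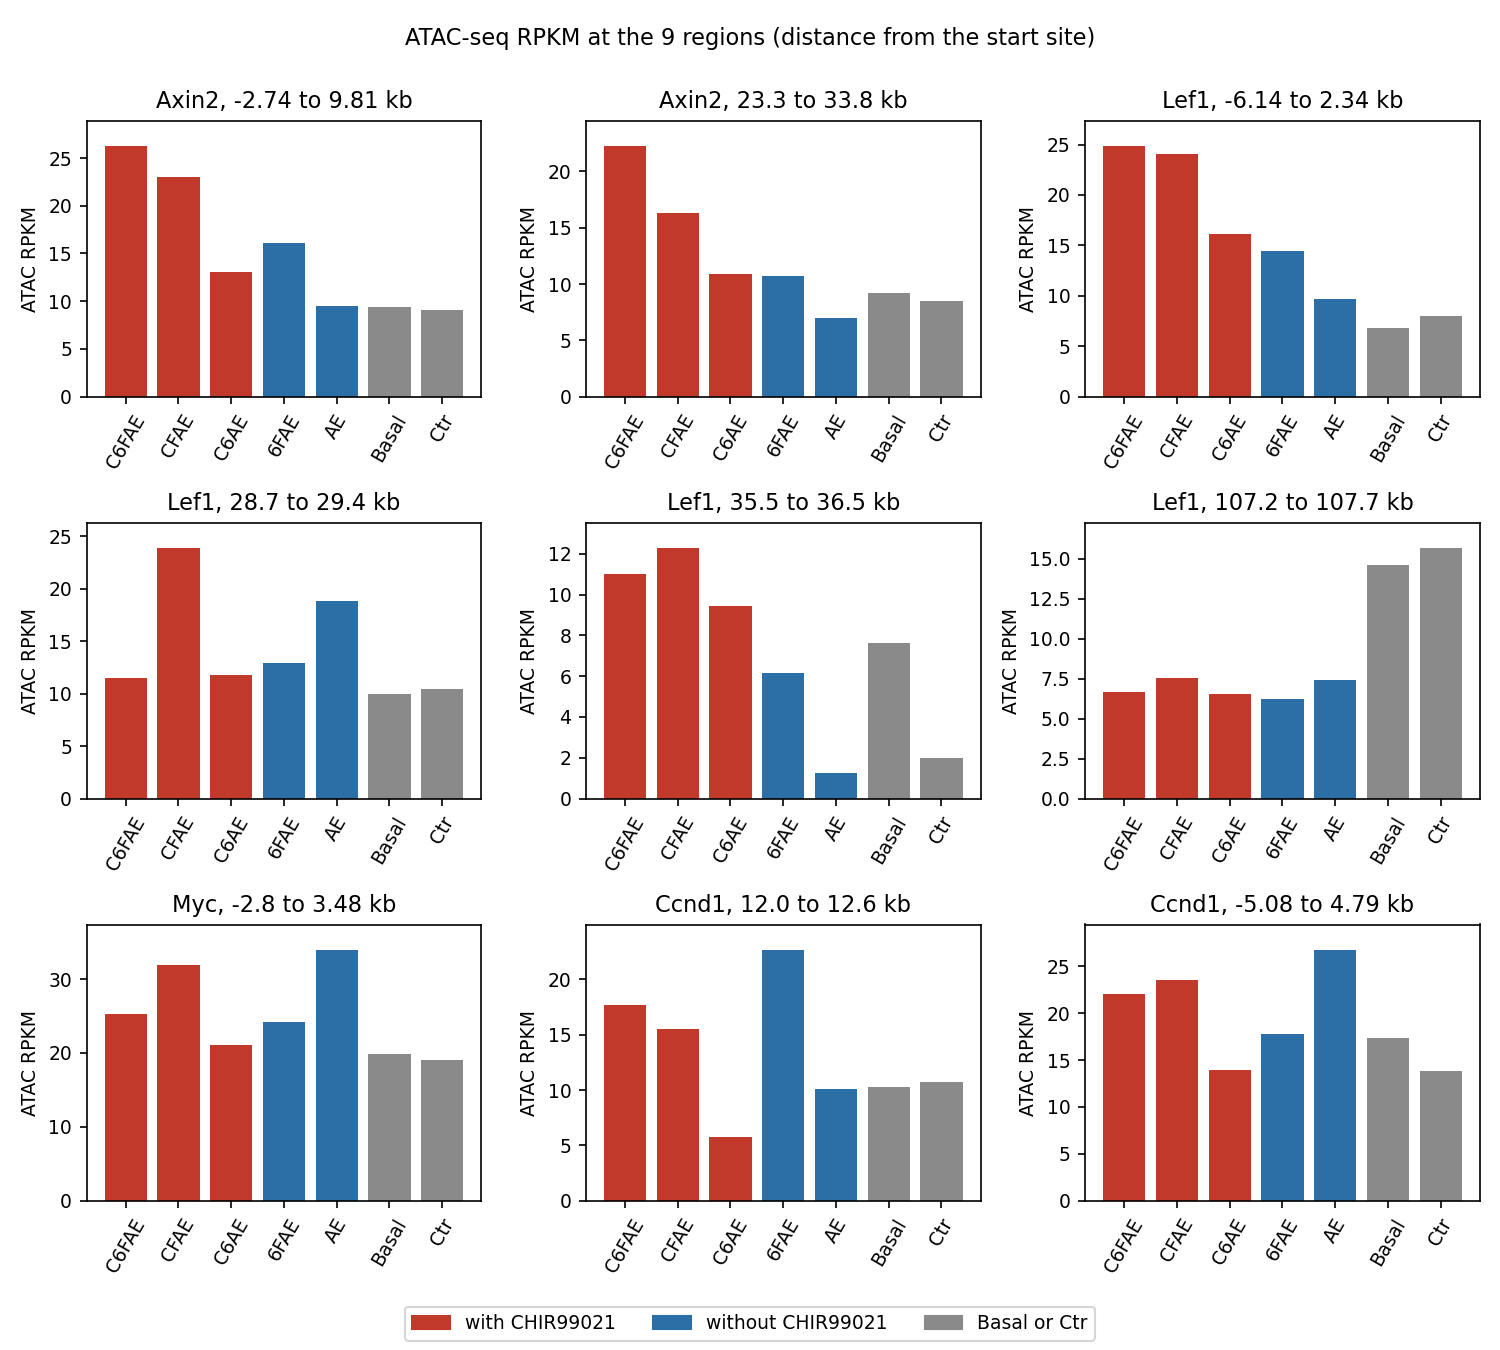
Merged ATAC-seq RPKM (vertical axis, from 0) of the 9 regions in 7 treatments, 1 bar each, with the distance of each region from the start site in its title. Bars with CHIR99021 are all above 6FAE and AE at the Axin2 3′ end, the Lef1 start site and the Lef1 region at 35.5 kb.

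C6FAE was also set beside the treatments that lack C, 6 or F alone, with no test on the merged columns. On the log2(RPKM + 1) scale, C6FAE was above 6FAE by 0.68 at Axin2, 0.76 at Lef1, 0.30 at Ccnd1 and 0.07 at Myc, beside a median of 0.28 over all regions. The sign at Myc turned under median centring (-0.22), and that at Ccnd1 under quantile normalization (-0.03). No member reached a difference of 1, which 8.17% of all regions did, though the Axin2 3′ end came close at 0.997. C6FAE against CFAE, which lacks 6, differed by 0.19 at Axin2, 0.05 at Lef1, -0.09 at Ccnd1 and -0.32 at Myc, beside a median of -0.05. C6FAE against C6AE, which lacks F, differed by 0.96 at Axin2, 0.60 at Lef1, 0.63 at Ccnd1 and 0.25 at Myc, beside a median of 0.49. These comparisons share C6FAE.

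The single ATAC-seq libraries, compared through their peak lists, did not separate treatments with and without CHIR99021. The fold enrichment of the highest listed peak within 1 kb of the Axin2 start was 3.33 and 3.08 in the C6FAE libraries, 2.93 and 4.87 in CFAE and 3.04 and 2.55 in C6AE, against 2.1 and 3.87 in 6FAE and 2.87 and 2.68 in AE. At Lef1 it was 3.24 and 2.73 in C6FAE, 2.68 and 3.19 in CFAE and 2.35 and 2.35 in C6AE, against 1.98 and 3.02 in 6FAE and 2.27 and 2.04 in AE. The libraries overlapped at both genes, and replicate 2 of 6FAE was the high one without CHIR99021. Some of these peaks were weak. The -log10 q at Axin2 and Lef1 was 0.07 and 0.02 in replicate 1 of 6FAE, and 0.19 and 0.08 in replicate 2 of C6AE. The lowest fold enrichment listed also differed by library, from 1.7 in replicate 1 of CFAE to 2.13 in its replicate 2. The part of this limit in the values was not tested. At Myc the 6 libraries with CHIR99021 ran from 2.52 to 3.76 with a median of 2.97, and the 4 without from 2.63 to 3.33 with a median of 3.08. At Ccnd1 they ran from 2.38 to 3.68 with a median of 2.63, and from 2.45 to 3.1 with a median of 2.92. The mean log2 difference was 0.20 at Axin2 (two-sided exact permutation test, p = 0.40, adjusted over the 4 genes 0.80), 0.26 at Lef1 (p = 0.114, adjusted 0.457), -0.02 at Myc (p = 0.838, adjusted 1.0) and 0.00 at Ccnd1 (p = 1.0, adjusted 1.0). The smallest p these libraries allow is 0.00952. With the Basal and Ctr libraries added to those without CHIR99021, the difference at Lef1 was 0.48 (exact permutation test, p = 0.0113, adjusted 0.0453). Replicate 1 of Basal, which had no listed peak at the Lef1 start and entered as 1, is among those libraries. Basal and Ctr are not named as containing A and E, so the groups may then differ in these too. That difference cannot be assigned to CHIR99021 alone.

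**Figure D4:**
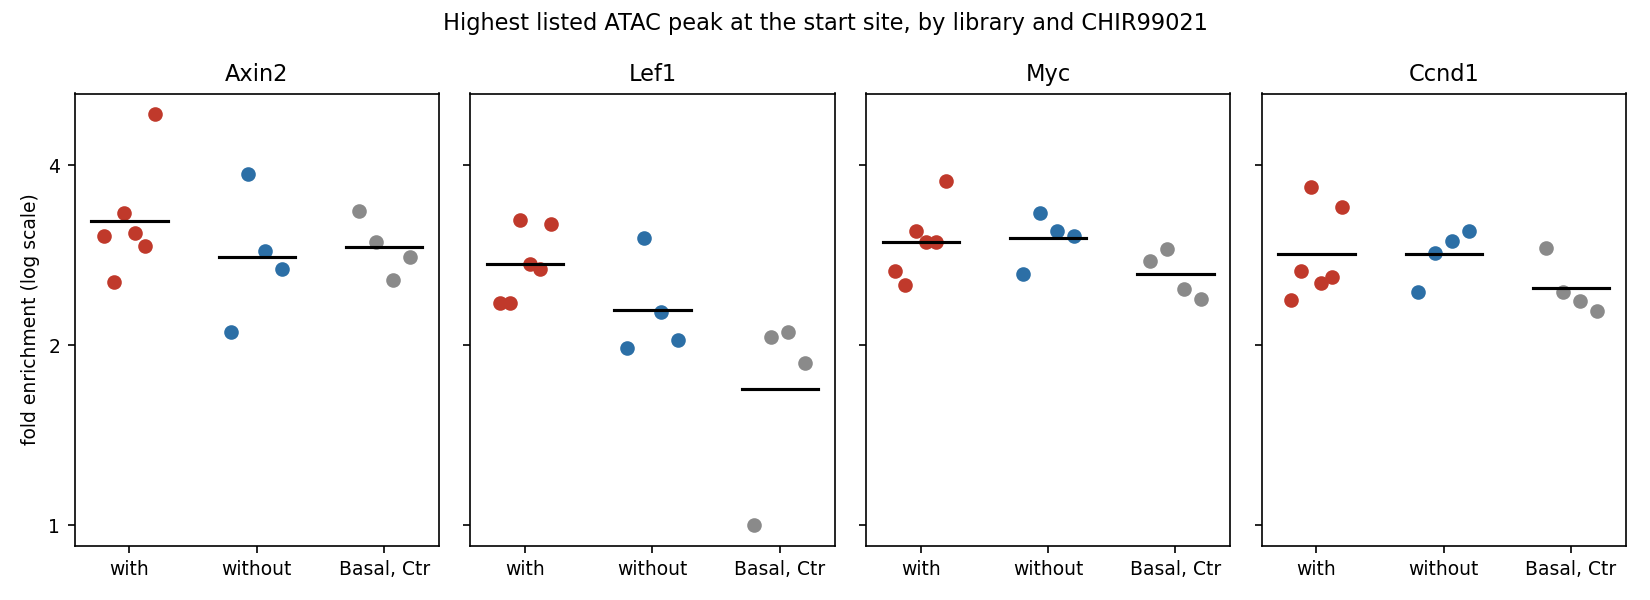
Fold enrichment of the highest listed ATAC-seq peak within 1 kb of each start site (vertical axis, log scale), with 1 point per library, the line at the mean of log2 values and libraries grouped by CHIR99021. Points with and without CHIR99021 overlap at all 4 genes.

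The mean fold enrichment of the listed peaks over each whole region was tested with limma over all 14 libraries. Of the 9 member regions 0 were called for C6FAE against 6FAE, where 0.00274% of regions were. An unadjusted p under 0.05 was found at 0 members and at 1757 of 36431 regions. The log2 difference was 0.51 ± 0.41 (SE) at the Axin2 start, 0.66 ± 0.43 at its 3′ end, 0.49 ± 0.41 at the Lef1 start, 0.42 ± 0.33 at the Ccnd1 start and 0.14 ± 0.29 at the Myc start, and 8 of 9 differences were above 0, with a median of 0.42 beside 0.15 over all regions. Without replicate 1 of 6FAE the differences were 0.29 at the Axin2 start, 0.37 at its 3′ end and 0.21 at the Lef1 start, and the median was 0.21 beside -0.06 over all regions. Without replicate 1 of C6FAE the median was 0.19 beside 0.01. In simulated data for C6FAE against 6FAE, over 36431 regions, the test recovered 3 of 100 regions changed by 1 on the log2 scale and 67 of 100 changed by 2, so differences of the size seen here were rarely detectable in that comparison. For treatments with against without CHIR99021, 0 of 9 were called, where 0% of all regions were, although 1655 regions and 1 member had an unadjusted p under 0.05. That member was the Lef1 region at 35.5 kb, at 0.64 ± 0.31 (limma across all regions, adjusted p = 1.0).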

How the data were processed

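ATAC-seq and ChIP-seq reads were processed by the authors with Bowtie2, MACS2 and deepTools 3.1.0 on mm9, per the labels. The RPKM tables deposited by the authors give reads scaled by region length and mapped reads (RPKM). The ATAC-seq columns merge 2 libraries and the ChIP-seq columns hold 1. The peak lists deposited for each library give the pileup signal, the fold enrichment ratio over modelled background, and the -log10 p and q. Per the file headers they were called with MACS 2.1.2 at p 0.05 with tags extended to 250 bp, ChIP-seq against input. These headers state that q was not calculated, yet the column holds values, which were used as listed.

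Regions were compared on log2(RPKM + 1), with a call at a difference of 1. Peak lists gave a score per region, the length-weighted mean fold enrichment with 1 outside peaks, tested on the log2 scale with limma 3.58.1 in R 4.3.3 (7 treatments in 1 fit, Benjamini-Hochberg over 36431 regions, threshold 0.05) and checked on simulated data. Start site peaks were tested by exact permutation over 6 and 4 libraries (Python 3.11.15, scipy 1.17.1). ATAC-seq replicates were treated as separate samples on the labels. Of the ChIP-seq samples, 3 with conflicting labels were assigned to no group. Text names the 4 genes, all their regions, and the start site region in each table. The members and lists were chosen with earlier results of these data known. Other Wnt genes and cell type markers were not analysed here.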

Additional observations from a re-analysis of the deposited data

Results flagged for a closer look

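The fold enrichment at the Axin2 start site in CFAE replicate 2, 4.87, stood far from the other libraries with CHIR99021, of which the next was 3.33. The gap to the next value was 0.664 of the range of these libraries, taken on the unlogged scale, whereas the tests used log2. It was the 1 value set apart among 8 groups of libraries checked, and chance sets apart about 1 in 20.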

How the results depend on the processing

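None of the 9 member regions was called by limma under any alternative for either contrast: quantile normalization, pileup scaled to total tags, a -log10 q of at least 1.3, the score filter, and leaving out each library (0 to 0 called). The replicate numbers did not pair the samples, since the correlation of deviations over 15 pairs ran from -0.18 to 0.0591. With the replicate block 0 member regions were called and 0 promoters in the permutation test. The smallest p of that permutation was 0.02, so 1 promoter alone could not be called after adjustment over the 4 genes. Leaving out each library likewise left 0 to 0 promoters called, with the difference at Axin2 from 0.06 to 0.35 and at Lef1 from 0.18 to 0.39. The smallest p was then 0.0159 or 0.0238, again too large for 1 promoter alone to be called. Without replicate 2 of 6FAE, Lef1 reached that smallest p (exact permutation test, p = 0.0238, adjusted 0.0952). Adding Basal and Ctr to the libraries without CHIR99021 called 1 promoter, Lef1. For C6FAE minus 6FAE, 1 of 9 ATAC-seq regions was called higher with a pseudocount of 0.1 (9.81% of all regions) and 4 of 9 at a 1.5-fold threshold (25.6%), against 0 (8.17%). A pseudocount of 10 left 0 of the 2 H3K4me3 calls and 0 of the 1 H3K27me3 call, and a pseudocount of 0.1 or quantile normalization gave 2 H3K27me3 calls, where 29.3% and 15.4% of all regions were called lower. With against without CHIR99021, centring on the median or on the 10% of regions of highest RPKM left 1 H3K27me3 region, Lef1. Of all regions, 16.6% and 3.75% were then lower, against 14.6% without centring. The members counted for ATAC-seq and H3K4me3 did not change, but the share of all regions did. For ATAC-seq it was 10.6% and 9.87%, against 8.24%, and for H3K4me3 10.7% and 10.8%, against 2.68%. The H3K27me3 library of 6FAE and the H3K4me3 library of C6AE had the fewest tags of their marks. The part of depth in their values was not tested.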

Other observations

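The ChIP-seq samples titled Ctr carry the treatment C6FAE in their labels and belong to no group here. The H3K4me3 sample had an RPKM of 14.8 at Axin2, 9.10 at Lef1, 40.4 at Myc and 20.5 at Ccnd1. The H3K27me3 sample had an RPKM of 5.75 at Axin2 and 8.51 at Lef1, and its listed peaks covered 45.8% of the Axin2 window and 44.3% of the Lef1 window.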
